A study of Mus musculus with 23 samples.

Results

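The genes described here are 10 genes listed together as immediate early EGR and AP-1 genes. Egr1, Egr2 and Egr3 belong to the EGR group, Fos, Fosb, Jun, Junb, Jund and Atf3 to the AP-1 group, and Ier2 to neither. The 10 genes were chosen by name, with earlier results of these data known. Their counts beside shares of all genes are therefore a description and not independent support. They were matched by symbol to the Ensembl identifiers of the deposited table, and all 10 were found among its 47729 identifiers. RNA was measured in dendritic cells sorted from the spleens of wild type Balb/C mice. The sorted cells were DC1a (CD8hi CD172-), DC1b (CD8Int CD172+), DC2 (CD8lo CD172hi) and DC3 (CD8- CD172lo). The untreated groups held 2 libraries for each subset, from pools 1 and 2. The TLI groups held 4 libraries each for DC1a, DC1b and DC3, from pools 1 to 4, and 3 for DC2, from pools 1, 3 and 4. TLI is not spelled out in the labels (its usual meaning is total lymphoid irradiation), and no dose, time or age is given for these mice. Each library came from a pool of mice, so the p-values measure the spread between libraries of pooled mice and not between single animals. By the labels, subsets of 1 pool came from the same mice. Comparisons between batches, or averaged over subsets, count the subsets of 1 pool as separate libraries. The labels put TLI pools 3 and 4 in batch 2 and everything else, untreated mice included, in batch 1, so no untreated library was in batch 2.

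Immediate early genes are switched on within minutes of a signal without new protein having to be made first, and their short-lived messages decay soon after. The EGR proteins are zinc finger factors, and the FOS, JUN and ATF proteins join as bZIP pairs that bind AP-1 and cAMP response elements. In dendritic cells and macrophages these genes are known to respond to growth factors, microbial products and stress, and also to the handling of cells during tissue dissociation.

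Some of the elements through which signals reach such genes stand just before their starts. The RefSeq promoter table (GRCm38.p6) held windows for 7 of the 10 genes and none for Egr1, Egr3 and Ier2. The 4 sequences here are the 100 bases before the start of the genes whose windows held a searched element, each written 5′ to 3′ on the gene's strand, with the element in capitals. The Fos stretch is chr12:85473790-85473889 on the plus strand, and its capitals are TGACGT, the core of the cAMP response element, 66 to 61 bases before the start.
Fos: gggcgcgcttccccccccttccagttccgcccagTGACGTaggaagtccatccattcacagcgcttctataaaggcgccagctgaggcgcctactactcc
The Jun stretch is chr4:95052223-95052322 on the minus strand, and its capitals are TGACATCA, the proximal element of that promoter, 45 to 38 bases before the start.
Jun: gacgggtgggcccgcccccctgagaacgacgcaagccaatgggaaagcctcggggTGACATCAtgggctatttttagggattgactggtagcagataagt
The Atf3 stretch is chr1:191183334-191183433 on the minus strand, and its capitals are ACGTCA, the same core read on the other strand, 8 to 3 bases before the start.
Atf3: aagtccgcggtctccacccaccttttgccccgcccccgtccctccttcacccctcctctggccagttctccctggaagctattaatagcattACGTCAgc
The Egr2 stretch is chr10:67537769-67537868 on the plus strand, and its capitals are a CArG box, the site of serum response factor, 72 to 63 bases before the start, and ACGTCA 56 to 51 bases before it.
Egr2: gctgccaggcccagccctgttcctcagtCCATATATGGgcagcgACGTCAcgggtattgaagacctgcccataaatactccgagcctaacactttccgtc
Searched on both strands over 250 bases before to 50 after the start, TGACGT was found in 3 of the 7 genes (Fos, Atf3 and Egr2) and in 8.37% of the 27025 genes with a window in the table, some of which, Egr2 among them, have several windows. TGACATCA was found in Jun alone and in 4.18% of genes, and the CArG box in Egr2 alone and in 1.81%. The AP-1 element TGANTCA was found in 0 of the 7 genes and in 8.97% of all genes, and the full element TGACGTCA, which contains TGACGT, in 0 of 7 and in 2.03%. The RefSeq starts of Atf3 and Egr2 lie inside the spans of those genes in the annotation used for the counts' symbols. Bases outside the windows were not searched. A match describes letters in a window and not a site in use.

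The libraries held 19256447 to 36997890 estimated counts, and each batch 2 library was deeper (28456134 or more) than each TLI library of batch 1 (28433154 or fewer). Levels are CPM, each gene's count scaled to the library total, and a floor of 3 counts stood at 0.0811 to 0.156 CPM. Folds between groups are ratios of mean CPM. Log2 differences are fitted by edgeR with its own scaling and model terms, unless DESeq2 is named, so a fold and its log2 value can differ in size. The floor covers counting error only, since amplified reads are not independent molecules. The gate markers mostly followed the labels: Cd8a was at 450 to 468 CPM in untreated DC1a and below 1 CPM in untreated DC2, and Sirpa, which encodes CD172a, was at 196 to 252 CPM in untreated DC2 and below 1 CPM in untreated DC1a. There were exceptions. Untreated DC3 of pool 2 was labelled CD8- and held 41.6 CPM of Cd8a, against 0.410 in pool 1. TLI DC1b of pools 3 and 4 were labelled CD172+ and held 5.10 and 6.55 CPM of Sirpa, against 146 and 141 in pools 1 and 2. TLI DC1b of pool 4 was also labelled CD8Int and held 0.327 CPM of Cd8a. TLI DC2 of pools 1 and 3 were labelled CD172hi and held 36.7 and 9.22 CPM of Sirpa, against 309 in TLI DC2 of pool 4. Untreated DC1b carried plasmacytoid dendritic cell markers, whose summed level was 2666 to 2830 CPM there and at most 165 in the other untreated libraries. Untreated DC3 carried natural killer cell markers, which summed to 396 and 220 CPM there and to at most 8.15 in the other untreated libraries. Red cell genes summed to 19250 to 132800 CPM in TLI libraries of batch 1, to 143 to 7126 in those of batch 2 and to 56.1 to 2276 in untreated libraries. In pooled RNA of this kind, fewer cells of a type and less RNA per cell cannot be told apart.

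The 10 genes ranged from among the most abundant messages of these cells to hardly detected. On a per-length scale, as mean CPM per kilobase of exon over all 23 libraries, the order was Fos (559), Atf3 (247), Ier2 (190), Junb (88.0), Fosb (46.6), Jun (40.4), Jund (24.4), Egr1 (22.6), Egr2 (8.73) and Egr3 (0.122). By mean CPM, Fos stood above 99.63% of the 19597 genes tested over all libraries and Atf3 above 98.64%. Egr3 was at or under the floor in 14 of 23 libraries and stood above only 20.59% of genes. The summed level of the 10 genes was highest in untreated DC2 (5094 and 6121 CPM), next in untreated DC3 (3193 and 3290), then in DC1b (2199 and 2491) and in DC1a (1709 and 1769), and these 4 pairs of libraries did not overlap.

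**Figure D1:**
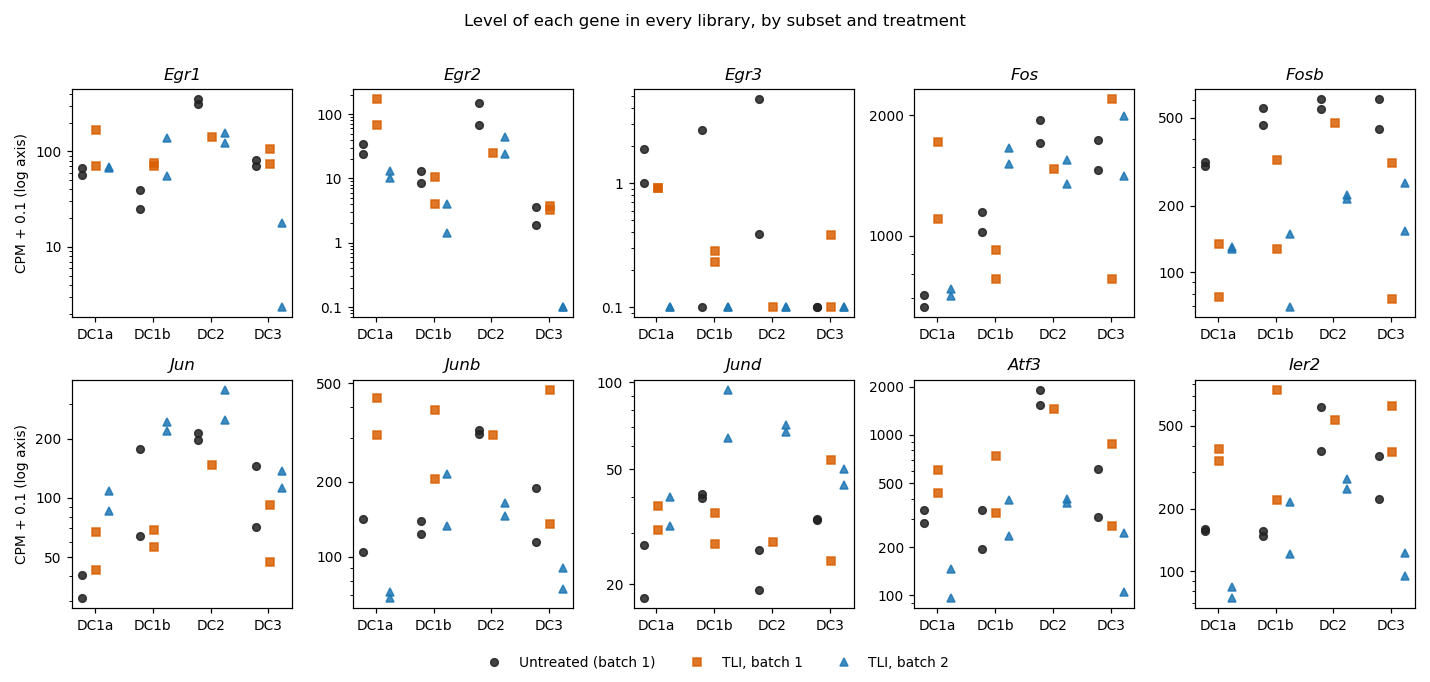
Level of each gene in every library (CPM plus 0.1, log axis) by sorted subset, with 1 panel for each gene. Black circles are untreated libraries, orange squares TLI libraries of batch 1 and blue triangles TLI libraries of batch 2. Egr1 and Atf3 are highest in untreated DC2, Fosb is lower in TLI than in untreated libraries of each subset, and Jun is higher and Ier2 lower in batch 2 than in batch 1 of each subset.

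Among subsets of untreated mice, Egr1 and Egr2 held 4 of the 5 calls. Egr1, a zinc finger factor of the immediate early response (chr18:34859823-34864984, GRCm38, plus strand), was at 314 and 349 CPM in DC2. It was at 81.8 and 70.7 CPM in DC3, at 66.4 and 56.2 in DC1a and at 24.7 and 39.2 in DC1b. Both DC2 libraries stood above the other 6, and DC3, DC1a and DC1b followed in that order without overlap. Mean CPM of Egr1 was 5.40-fold higher in DC2 than in DC1a. By edgeR's quasi-likelihood test over 8 libraries and 16676 genes, the fitted difference was log2 2.20 (SE 0.32, Benjamini-Hochberg adjusted p = 0.0301). In that comparison 2.67% of all genes passed in either direction. Egr1 was 10.4-fold higher by mean CPM in DC2 than in DC1b (fitted log2 3.43, SE 0.34, edgeR adjusted p = 0.0223), where 0.51% of genes passed. It was 4.35-fold higher by mean CPM in DC2 than in DC3 (fitted log2 2.15 in size, SE 0.32, edgeR adjusted p = 0.0469), where 1.01% passed. With the pool as a replicate block the same 3 differences had adjusted p of 0.0611, 0.0636 and 0.0952.

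Egr2, known for restraining T cell activation (chr10:67535475-67542188, plus strand), was at 68.8 and 148 CPM in DC2, at 23.9 and 34.3 in DC1a, at 8.33 and 13.2 in DC1b and at 1.82 and 3.49 in DC3. The 4 pairs did not overlap, and unlike Egr1 the lowest subset was DC3. The difference between DC3 and DC2 passed (40.9-fold, log2 -5.36, SE 0.69, adjusted p = 0.0309 by the quasi-likelihood test and 0.0286 with the replicate block). The difference between DC2 and DC1b was of like size to that of Egr1 but missed the threshold (10.1-fold, log2 3.38, SE 0.63, adjusted p = 0.0920 by the same test). Egr3, the third gene of this family (chr14:70077203-70082614, plus strand), was at 0.285 and 4.62 CPM in DC2, at 0.906 and 1.78 in DC1a, at 0 and 2.60 in DC1b and at 0 in both DC3 libraries, and no order among its subsets can be read at this level.

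Fos (chr12:85473890-85477273, plus strand), the founding AP-1 partner of the JUN proteins, was at 1701 and 1940 CPM in DC2, at 1732 and 1456 in DC3, at 1020 and 1144 in DC1b and at 710 and 663 in DC1a. The DC2 and DC3 libraries overlapped, and DC1b and DC1a followed in that order without overlap. Fos was 2.65-fold higher in DC2 than in DC1a (log2 1.17, SE 0.17, edgeR adjusted p = 0.0264, and 0.0582 with the replicate block). Fosb, a close relative of Fos (chr7:19302696-19310051, minus strand), was at 551 and 606 CPM in DC2, at 443 and 606 in DC3, at 466 and 552 in DC1b and at 315 and 302 in DC1a. DC1a was lowest, and the other 3 subsets overlapped. The DC2 to DC1a difference of Fosb was 1.87-fold and did not pass (log2 0.67, SE 0.23, edgeR adjusted p = 0.199).

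The JUN genes did not move alike. Jun (chr4:95049034-95052222, minus strand) was at 213 and 197 CPM in DC2, at 145 and 71.1 in DC3, at 177 and 63.6 in DC1b and at 40.5 and 31.0 in DC1a. Its libraries within DC1b and within DC3 lay more than 2-fold apart, and the DC2 to DC1a difference did not pass (5.74-fold, log2 2.29, SE 0.55, edgeR adjusted p = 0.0947). Junb (chr8:84974484-84978718, minus strand), which can oppose Jun at some promoters, was at 313 and 324 CPM in DC2 and between 104 and 189 CPM in the other 6 libraries. Its differences between DC2 and DC1a and DC1b were 2.59-fold and 2.43-fold, with edgeR adjusted p of 0.123 and 0.146. Exons of Junb overlap those of Prdx2 on the other strand, and counting is not stated to use strand. Prdx2 was lower in untreated DC2 (80.5 and 121 CPM) than in the other untreated libraries (188 to 440 CPM), the opposite order to that of Junb. Jund (chr8:70698949-70700616, plus strand), which is usually the steadily expressed member of the family, was at 19 and 26.1 CPM in DC2, at 27.2 and 17.9 in DC1a, at 33.5 and 33.3 in DC3 and at 39.6 and 41.0 in DC1b. The DC2 libraries of Jund lay below those of DC1b and DC3, unlike any other of the 10 genes, and no Jund difference passed.

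Atf3, a stress-induced bZIP repressor of cytokine genes (chr1:191170296-191218039, minus strand), was at 1534 and 1905 CPM in DC2. It was at 307 and 615 CPM in DC3, at 284 and 342 in DC1a and at 194 and 341 in DC1b. The DC2 libraries stood apart, and the other 3 subsets overlapped. The DC2 to DC1a difference of Atf3 was as large as that of Egr1 (5.49-fold, log2 2.22, SE 0.44) but missed the threshold (edgeR adjusted p = 0.0600), and it passed with the replicate block (adjusted p = 0.0441). The difference from DC1b was 6.43-fold (log2 2.74, SE 0.45, edgeR adjusted p = 0.0748) and that from DC3 was 3.73-fold (log2 1.92 in size, SE 0.44, edgeR adjusted p = 0.104). Ier2, a small immediate early nuclear protein (chr8:84661331-84662852, minus strand), was at 381 and 620 CPM in DC2, at 357 and 223 in DC3, at 159 and 156 in DC1a and at 147 and 156 in DC1b. Its DC2 to DC1a and DC2 to DC1b differences were 3.18-fold and 3.31-fold, with edgeR adjusted p of 0.0756 and 0.0836.

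**Figure D2:**
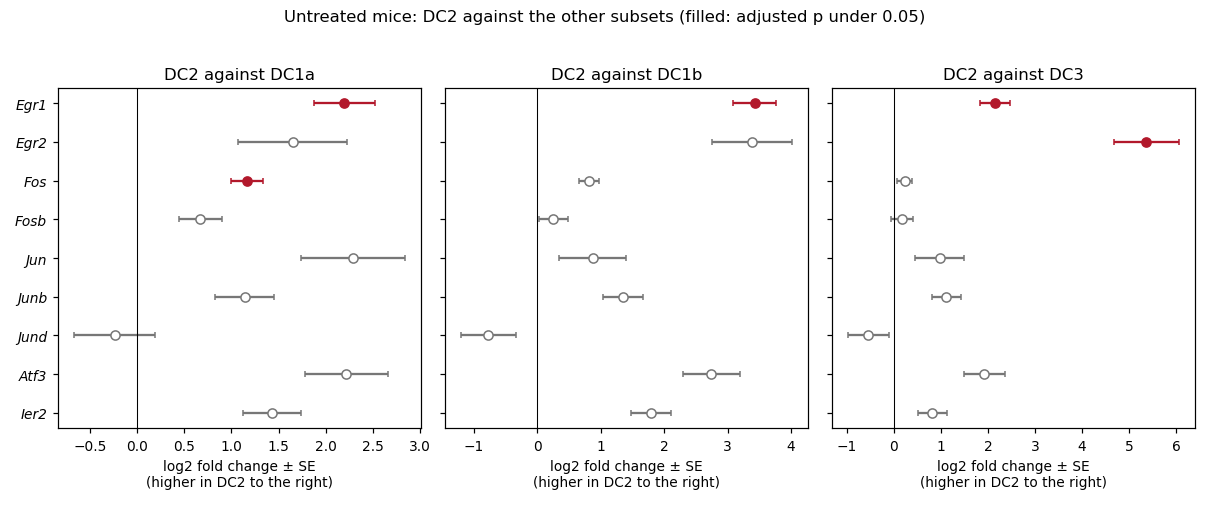
Log2 fold change with its standard error for DC2 against DC1a, DC1b and DC3 of untreated mice, with 2 libraries for each subset and Egr3 left out for its low counts. Filled red points have an edgeR adjusted p under 0.05: Egr1 in all 3 panels, Fos against DC1a and Egr2 against DC3. All points except those of Jund lie to the right of 0.

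Of 60 gene and subset pairs in untreated mice, 5 passed, all of them with the DC2 level higher, 30 had an unadjusted p under 0.05 and DESeq2 called 22, where the shares of all genes over the same 6 comparisons were 14.6% and 11.3%. In the pairs without DC2, 0 of 10 genes passed in each: DC1b against DC1a (1.11% of all genes passed), DC3 against DC1a (0.138%) and DC3 against DC1b (0.3%) by edgeR. Over these 3 comparisons, 10 of 30 pairs had an unadjusted p under 0.05, against 13.3% of all genes, and DESeq2 called 5, against 9.31%. Both DC2 libraries stood above all 6 others for 6 of the 10 genes (Egr1, Egr2, Jun, Junb, Atf3 and Ier2), against 8.93% of all genes tested, and below all others for 0 of 10, against 8.68%. The median log2 difference of the 10 genes between DC2 and DC1a was 1.3, against 0.13 for all genes, and between DC2 and DC1b it was 1.13, against -0.01. The genes were chosen with earlier results of these data known, so these counts and medians are no independent test. The calls rested on few libraries. The 5 calls became 0 without pool 1 or pool 2 of DC1a, without pool 1 or pool 2 of DC2 or without pool 2 of DC3, became 1 without pool 1 of DC3, and became 3 without pool 1 or pool 2 of DC1b. With DC1b left out of the fit, the 4 calls against DC1a and DC3 (Egr1 against both, Fos against DC1a and Egr2 against DC3) were still made. DC1b enters those comparisons only through what the fit shares, which is the filter on low counts, the scaling and the estimate of spread. The part of its plasmacytoid markers in the Egr1 difference from DC1b was not tested. The part of natural killer cell markers in the differences from DC3 was not tested either.

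Some other immediate early genes also differed between DC2 and the other subsets. By edgeR, the shares of all genes that passed were 2.67% for DC2 against DC1a, 0.51% for DC2 against DC1b and 1.01% for DC3 against DC2. Without DC2 they were 1.11% for DC1b against DC1a, 0.138% for DC3 against DC1a and 0.3% for DC3 against DC1b. Of 26 other immediate early genes tested, 5 were higher and 0 lower in untreated DC2 than in DC1a. Their median log2 difference was 1.38, against 0.13 for all genes. The 5 included Klf4, a zinc finger factor of myeloid cells (211 ± 0.636 against 29.8 ± 2.06 CPM, SD, n = 2 each), Dusp1, a phosphatase of MAP kinases (1929 ± 584 against 333 ± 26.3 CPM), and Nr4a1, an inducible nuclear receptor (1001 ± 215 against 191 ± 6.86 CPM). Against DC1b, 2 of the 26 were higher in DC2 (Nr4a1, and Ppp1r15a, a stress-induced phosphatase subunit), and against DC3, 2 were higher in DC2 (Ier3 and Nr4a1). Of 12 activation genes, 3 were higher in DC2 than in DC1a, with the chemokine gene Ccl3 at 1298 ± 36.1 against 74.6 ± 0.530 CPM. Against DC1b, 2 of the 12 were higher in DC2 (Cd86 and Ccl3). Against DC3, 4 were higher in DC2, including Ccl3, Ccl4 and the costimulatory receptor gene Cd40. Of 11 heat shock genes tested, 1 passed between DC2 and DC1a, the mitochondrial chaperonin gene Hspe1, which was lower in DC2. Of 16 genes for kinases and factors that act on immediate early promoters (such as Srf and Elk1), 0 passed in any of these 6 comparisons by edgeR, with 0 to 3 in each at an unadjusted p under 0.05. Among 13 relatives of the 10 genes tested, Atf7 was higher in DC2 than in DC1a, and Batf3, the factor needed for the CD8 positive lineage, was lower in DC1b (46.3 ± 6.42 CPM) than in DC1a (274 ± 43.2), DC3 (287 ± 1.13) and DC2 (154 ± 20.5), and all 3 differences passed. Monocyte and macrophage markers moved with these results in part. Their 7 genes summed to 5344 and 5643 CPM in untreated DC2 and to 783 and 817 in DC1a. They summed to 3529 and 5676 in DC1b and to 1654 and 2729 in DC3. Lyz2 made up most of the DC2 sum (4790 and 5377 CPM). By edgeR, 1 of 7 was called higher in DC2 than in DC1a, and 1 of 7 lower in DC2 than in DC1b. Ly6c2 was at 1480 and 2348 CPM in DC1b and at 19.6 and 21.4 in DC2. Vcam1 was at 17.4 and 21.2 CPM in DC1a and at 1.95 and 1.56 in DC2. The part of these markers in the result was not tested.

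In TLI mice, libraries of 1 subset lay far apart for several genes. Egr1 was at 142, 156 and 121 CPM in DC2 (pools 1, 3 and 4), at 69.9, 167, 68.8 and 67.1 in DC1a (pools 1 to 4), at 70.6, 75.0, 137 and 55.6 in DC1b and at 73.2, 105, 2.25 and 17.7 in DC3. DC2 overlapped with DC1a and DC1b but not with DC3. Egr2 was at 24.4, 44.7 and 23.9 CPM in DC2, at 68.8, 170, 12.8 and 10.2 in DC1a, at 10.6, 3.85, 3.96 and 1.31 in DC1b and at 3.13, 3.69, 0 and 0 in DC3. DC3 again had the lowest mean of Egr2, though it overlapped with DC1b, and both libraries at 0 were of batch 2. By edgeR with the batch as a term over 15 libraries and 16400 genes, that difference had an adjusted p of 0.0676 against DC2 (log2 -6.53, SE 1.54) and of 0.0868 against DC1a (log2 -5.98, SE 1.35), and DESeq2 called both. Jun was at 146, 354 and 250 CPM in DC2 and at 43.1, 66.8, 86.2 and 109 in DC1a, without overlap. Its mean CPM was 3.28-fold higher in DC2, which lacks pool 2. With the batch as a term, the fitted difference was log2 1.20 (SE 0.32, edgeR adjusted p = 0.0691).

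Of 54 gene and subset pairs tested in TLI mice, 0 passed by edgeR, 12 had an unadjusted p under 0.05 (12.2% of all genes) and DESeq2 called 6 (7.33% of all genes). The shares of all genes that passed by edgeR were 1.46% for DC1b against DC1a, 2.97% for DC2 against DC1a, 0.165% for DC2 against DC1b, 0.634% for DC3 against DC1a, 1.02% for DC3 against DC1b and 1.21% for DC3 against DC2. Egr3 did not pass the filter on low counts. Without TLI DC2 of pool 1, whose Sirpa (36.7 CPM) lay below that of TLI DC1b of pools 1 and 2, 1 pair passed. Without TLI DC1b of pool 3 or 4 or TLI DC2 of pool 3, whose gate markers went against their labels, 0 passed. Whether the difference between TLI and untreated mice was the same in all subsets was asked with a term for subset by treatment, which gives no direction. It was called for 0 of the 10 genes and for 0.0357% of all genes, with Atf3 at an unadjusted p of 0.0496 by edgeR (adjusted p = 0.638), a level that 7.82% of all genes reached, and 0 called by DESeq2, against 2.9% of all genes.

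More genes passed between the TLI libraries of batch 2 (pools 3 and 4) and batch 1 (pools 1 and 2) than between any pair of TLI subsets. With the subset as a term, 18.8% of all genes passed, and 4 of the 9 genes tested did, 3 lower and 1 higher in batch 2. At an unadjusted p under 0.05 stood 6 of the 9, against 33.1% of all genes, and DESeq2 called 5, against 33%. Ier2 was lower in batch 2 in every subset without overlap. It was at 83.4 and 74.3 CPM against 338 and 386 in DC1a, at 216 and 121 against 221 and 745 in DC1b, at 247 and 279 against 533 in DC2 and at 94.3 and 122 against 375 and 623 in DC3 (log2 -1.82, SE 0.27, edgeR adjusted p = 0.00101). Atf3 averaged 249 ± 128 CPM in the 8 libraries of batch 2 and 673 ± 410 in the 7 of batch 1 (log2 -1.62, SE 0.31, edgeR adjusted p = 0.00371). Its DC2 libraries were at 375 and 400 CPM in batch 2 and at 1461 in batch 1, where the untreated DC2 libraries stood at 1534 and 1905. Junb averaged 120 ± 53.2 CPM in batch 2 and 322 ± 121 in batch 1 (log2 -1.57, SE 0.31, edgeR adjusted p = 0.00437). Prdx2, which shares exon sequence with Junb on the other strand, was at 67.1 to 318 CPM in batch 2 and 417 to 1740 in batch 1, and its part in the Junb value was not tested.

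Jun went the other way and was higher in batch 2 in every subset without overlap. It was at 86.2 and 109 CPM against 43.1 and 66.8 in DC1a, at 242 and 219 against 68.7 and 56.1 in DC1b, at 354 and 250 against 146 in DC2 and at 112 and 137 against 47.2 and 91.6 in DC3 (log2 1.14, SE 0.23, edgeR adjusted p = 0.00468). Junos, which overlaps Jun on the other strand, was also higher in batch 2 but far lower in level than Jun (2.92 to 27.2 CPM against 0.0433 to 2.93). These 4 calls held in all 21 alternatives that could be fitted. They included leaving out each library and leaving out both libraries richest in red cell genes, TLI DC1a and DC3 of pool 1. None of the 21 had a term for the pool, which cannot be fitted beside the batch. The batch comparison rests on pools 3 and 4 against pools 1 and 2, with libraries of 1 pool entered as separate. Ier2 and Jun were each 1 of 10 genes without overlap in every subset, against 5.47% of all genes lower and 8.93% higher in batch 2 in that way. Jund (log2 0.68, adjusted p = 0.0907) and Egr2 (12.1 against 40.6 CPM on average, adjusted p = 0.0590) missed the threshold by edgeR, and Egr1 (log2 -0.91, adjusted p = 0.313), Fosb (log2 -0.45, adjusted p = 0.441) and Fos (log2 0.02, adjusted p = 0.964) were far from it, and the sign of the Fos value turned under some alternatives. Egr3 did not pass the filter on low counts here, with 0 CPM in all 8 libraries of batch 2 and 0.317 ± 0.351 in the 7 of batch 1. In the 4 alternatives that kept it, it was lower in batch 2 with an edgeR adjusted p of 0.0183 to 0.0451. The median log2 difference of the 9 genes was -0.91, against -0.26 for all genes.

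**Figure D3:**
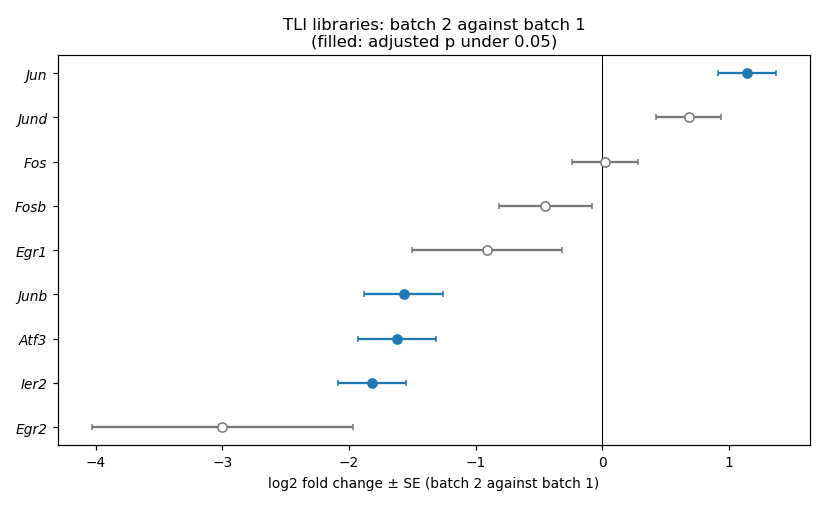
Log2 fold change with its standard error of batch 2 against batch 1 within the 15 TLI libraries, for the 9 genes tested. Filled points have an edgeR adjusted p under 0.05: Jun is higher in batch 2, and Junb, Atf3 and Ier2 are lower.

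The counts that follow stand beside the 18.8% of all genes that passed between the batches. Of 26 other immediate early genes, 8 were lower in batch 2, including Ier3 and Nr4a1 (146 ± 122 against 466 ± 224 CPM), and 3 were higher, including Ier5 (628 ± 197 against 99.4 ± 26.3 CPM, log2 2.54, edgeR adjusted p = 3.07e-05). Of 12 activation genes, 10 were lower and 0 higher, with Il1b at 391 ± 181 against 2777 ± 1020 CPM and Cd83, a maturation marker, at 248 ± 97.7 against 1873 ± 1091 CPM. Of 12 heat shock genes, 3 were higher and 3 lower, and the inducible chaperone genes Hspa1b (588 ± 284 against 14.7 ± 10.3 CPM) and Hspa1a (312 ± 117 against 15.6 ± 11 CPM) were far higher in batch 2. Of the 16 upstream genes, 2 were higher (Rps6ka3 and Mkl2), and of 13 relatives 1 was lower (Atf4), and both shares lie below that of all genes. Markers of other cells moved with the batch. All 5 red cell and all 5 natural killer cell markers, 4 of 5 T cell, 3 of 7 monocyte and macrophage, 1 of 7 neutrophil and 4 of 6 general dendritic cell markers were lower in batch 2. The natural killer cell markers summed to 0.241 to 83.7 CPM in batch 2 and to 184 to 3832 in batch 1, and the T cell markers to 2.50 to 36.8 and to 57.6 to 241, with Cd3e and Ncr1 at 0 in several libraries of batch 2. Their part in these results was not tested, and pools of mice and library batches cannot be told apart here.

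The comparison of TLI with untreated mice was made in each subset with the batch as a term, over 23 libraries and 19597 genes, and 0 of 40 gene and subset pairs passed by edgeR. In these comparisons 7 pairs had an unadjusted p under 0.05, against 10.4% of all genes, and DESeq2 called 3 (Ier2, Junb and Atf3 in DC1b), against 4.95%. The shares of all genes that passed were small as well, 0.0102% in DC1a, 0.413% in DC1b, 0.0612% in DC2 and 0.0255% in DC3. The nearest was Ier2 in DC1b, which was at 147 and 156 CPM in untreated libraries and at 221, 745, 216 and 121 in TLI libraries (log2 2.11 with the batch as a term, SE 0.46, edgeR adjusted p = 0.0541). It passed without TLI DC1b of pool 1 or without TLI DC2 of pool 1. Egr1 in DC1b was at 24.7 and 39.2 CPM in untreated and at 70.6, 75.0, 137 and 55.6 in TLI libraries, without overlap (log2 2.27, SE 0.93, edgeR adjusted p = 0.334). In DC2, Egr1 was lower in TLI (121 to 156 CPM) than in untreated libraries (314 and 349 CPM), without overlap, and that difference did not pass either. Markers of other cells also differed between TLI and untreated DC1b. Neutrophil markers summed to 1405 to 20880 CPM in TLI DC1b and to 1.16 to 20.1 in untreated DC1b. Monocyte and macrophage markers summed to 7484 to 25110 and to 3529 to 5676, and plasmacytoid markers to 25.06 to 126.5 and to 2666 to 2830. The part of these markers in the DC1b differences was not tested.

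Fosb was the gene that separated TLI from untreated libraries in every subset. In DC1a it was at 315 and 302 CPM in untreated libraries and at 134, 77.3, 130 and 128 in TLI libraries. In DC1b it was at 466 and 552 against 321, 127, 149 and 69.5. In DC2 it was at 551 and 606 against 475, 215 and 224, and in DC3 at 443 and 606 against 313, 75.3, 254 and 153. The TLI libraries were the lower in each subset without overlap and in both batches. This held for 1 of the 10 genes and for 0.362% of all genes, and the opposite order held for 0 of 10 and for 0.0408%. As an average over the 4 subsets, a comparison added after the values were seen, the Fosb difference did not pass by edgeR (log2 -0.98, SE 0.33, unadjusted p = 0.00825, adjusted p = 0.126), while DESeq2 called it (adjusted p = 0.0435). Means were 480 ± 121 CPM in 8 untreated libraries and 190 ± 113 in 15 TLI libraries. Fos was below the untreated libraries without overlap in DC2 alone, and stood at 1296 CPM on average in untreated and 1323 in TLI libraries (log2 0.22, SE 0.22, edgeR adjusted p = 0.715). The ratio of Fosb to Fos CPM was 0.393 ± 0.0838 (SD, n = 8) in untreated libraries, from 0.256 to 0.483. It was 0.167 ± 0.12 (n = 15) in TLI libraries, from 0.0344 to 0.413, and the ranges overlapped.

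**Figure D4:**
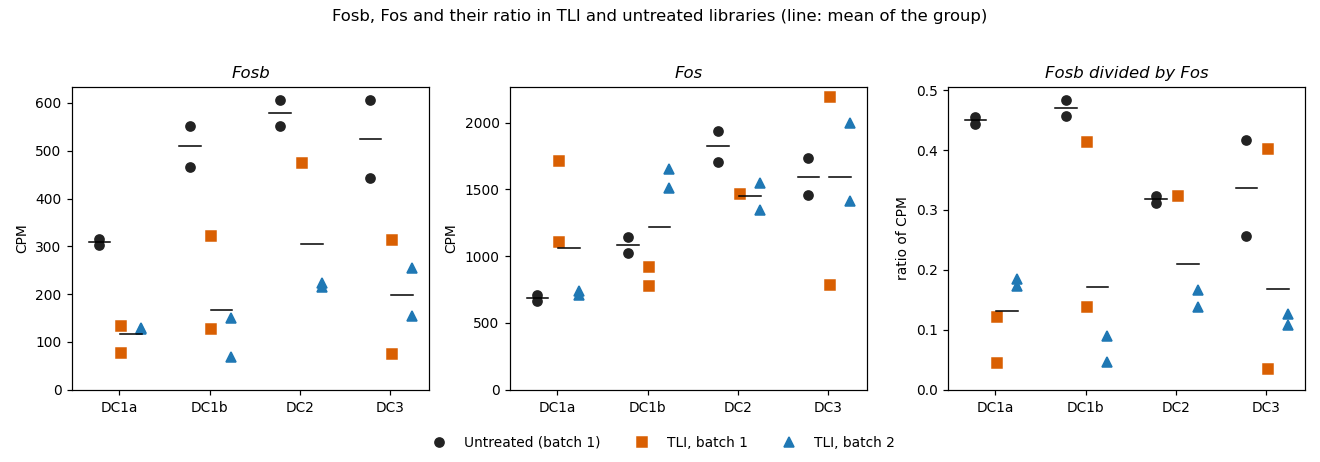
Level of Fosb (left, CPM) and Fos (middle, CPM) and their ratio (right) in each of the 23 libraries, by subset, with a line at the mean of each group. Black circles are untreated libraries, orange squares TLI libraries of batch 1 and blue triangles TLI libraries of batch 2. The TLI points lie below the untreated points in every subset for Fosb, and for Fos in DC2 alone.

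In the same average over subsets, 2 of the 10 genes passed and 2.44% of all genes did, 3 had an unadjusted p under 0.05 (16.9% of all genes), and DESeq2 called 3 (13.6% of all genes). Ier2 (log2 1.16, SE 0.24, edgeR adjusted p = 0.0203) and Junb (log2 1.14, SE 0.27, edgeR adjusted p = 0.0354) were higher in TLI with the batch as a term, where batch 1 was the only batch with untreated libraries. The raw means hardly differed, at 297 CPM in TLI and 275 in untreated libraries for Ier2, and at 214 and 181 for Junb, and the TLI libraries of batch 2 averaged 155 CPM for Ier2 and 120 for Junb, below the untreated means. Without the batch term neither passed (edgeR adjusted p = 0.677 and 0.579), and with batch 1 alone neither did (adjusted p = 0.0671 and 0.0801 by the same test). The 2 calls became 0 without TLI DC1b of pool 2, untreated DC1a of pool 1 or 2, untreated DC1b of pool 1, untreated DC2 of pool 1 or untreated DC3 of pool 2. They became 1 without TLI DC1a of pool 1 or 2, TLI DC3 of pool 2, untreated DC1b or DC2 of pool 2 or untreated DC3 of pool 1. Red cell markers were higher in TLI with the batch as a term (5 of 5 called), as were 4 of 5 natural killer cell, 3 of 5 T cell, 4 of 7 neutrophil and 4 of 7 monocyte and macrophage markers, and their part in these differences was not tested.

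Across the 23 libraries the genes fell in with different companions, given here as a description of log2 CPM over libraries that share subsets, batches and depth. Junb and Ier2 had the highest Pearson correlation of any pair of the 10 (r = 0.884), followed by Atf3 and Ier2 (r = 0.817) and by Junb and Atf3 (r = 0.798), and Egr1 and Egr2 had r = 0.767. Fosb and Fos had r = -0.298. Among 10158 genes ranked, those most like Egr1 were Stxbp3 (r = 0.848), Plk3 (0.844), Asb2 (0.843), Ier3 (0.830) and 4833407H14Rik (0.820). Those most like Fos were Tpm4 (0.805), Rassf5 (0.802), Wsb1 (0.786), Itgb2 (0.782) and Zfp36 (0.780), and among those most like Jun were Fcho2 (0.851), Itch (0.846), Nsd3 (0.844) and Gm36949 (0.832).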

How the data were processed

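Cells were sorted as lineage negative, CD11c and MHCII positive cells split by CD8 and CD172a, and cDNA was made from small numbers of sorted cells with a SMARTseq kit. The authors trimmed 76 bp paired-end reads with Trimmomatic, aligned them to GRCm38 with HISAT2 and deposited estimated counts per gene from StringTie for Ensembl release 84. The estimated counts are whole numbers, not normalized, derived from transcript coverage, so genes that overlap can share reads. Tests had been planned for plain read counts, and the deposited values entered them without change. Symbols and positions came from GENCODE release M21 and matched 47224 of 47729 identifiers. No 2 columns were identical.

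CPM was computed from library totals. Tests were edgeR 4.0.16 (R 4.3.3) quasi-likelihood fits with TMM scaling and its expression filter, on the 8 untreated, the 15 TLI or all 23 libraries, with the batch as a term where both batches entered. P-values were adjusted by Benjamini-Hochberg over all genes of a comparison and called under 0.05. The biological coefficient of variation was 0.911, 1.07 and 1.08 in the 3 fits. Alternatives were DESeq2 1.42.0, its size factors, robust fits, no filter or 10 counts in every library, other sets of libraries, each library left out and the pool as a replicate block. The labels give subsets of 1 pool the same mice, so the pool number pairs subsets; residual correlations of same-numbered libraries were -0.00616 to 0.0160 in untreated and -0.161 to 0.0790 in TLI mice. TLI and untreated pools are different mice, so that comparison has no paired form. Scripts were tested on simulated counts. The 10 genes and all gene lists were chosen with earlier results of these data known. Genes of the lists were named as up to 3 called genes per list and comparison with a mean of at least 5 CPM, by size, and companions as the 5 of highest correlation, for Egr1, Fos and Jun, of which 1 is not reported here.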

Additional observations from a re-analysis of the deposited data

Results flagged for a closer look

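Among 30 groups of 4 TLI libraries (10 genes in DC1a, DC1b and DC3), 5 held a library far from its 3 companions by Dixon's criterion. Chance meets it in about 1 of 20 groups drawn from 1 normal distribution. The groups here mixed libraries of both batches, so that rate is no measure for the 5. Egr1 was at 167.2 CPM in TLI DC1a of pool 2, with a gap to the next library of 0.972 of the range. Fosb was lowest in that same library, at 77.32 CPM, with a gap of 0.889 of the range. Junb was at 469 CPM in TLI DC3 of pool 2 (gap 0.845), and Ier2 was at 744.7 CPM in TLI DC1b of pool 2 (gap 0.840). Egr3 was at 0.2843 CPM in TLI DC3 of pool 1 and at 0 in the other 3 libraries, where the gap has to be the whole range. Of these 5 values, 4 came from pool 2, and no cause was tested.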

How the results depend on the processing

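For 63 differences of a single gene (those with an unadjusted p under 0.05 and 5 others named above), 1213 of 1350 alternative values kept their direction and side of the threshold, 62 newly passed it, 66 no longer did and 9 turned sign. All 9 were for Fos between the batches, which was -0.05 (log2) with DESeq2, with its size factors and without both libraries richest in red cell genes, and -0.08 to 0.18 without each library (-0.06, -0.08, -0.05 and -0.03 without TLI DC1b of pools 1 to 4, and -0.06 and -0.03 without TLI DC3 of pools 1 and 3). Over all 173 gene and comparison pairs, 119 of 4080 alternative values had the opposite sign, 0 of them called and 0 in pairs with an unadjusted p under 0.05. The 5 calls among untreated subsets became 22 with DESeq2, 12 with no filter on low counts, 13 with at least 10 counts in every library, 2 with the replicate block and 1 with all 23 libraries in 1 fit, and the 6 libraries of DC1a, DC1b and DC2 gave 1 call where the same pairs had given 3. Leaving out each library gave 0 to 3. The 0 calls among TLI subsets became 6 with DESeq2, 2 with no filter, 1 with at least 10 counts and 2 with all 23 libraries in 1 fit, and leaving out each library gave 0 to 1. The 0 calls of TLI against untreated in each subset became 3 with DESeq2, 2 with at least 10 counts, 1 with no filter and 1 with the robust fit, and leaving out each library gave 0 to 1. The 2 calls of the average over subsets became 0 with batch 1 libraries only and 0 with no batch term, and leaving out each library gave 0 to 3. The 4 calls between batches became 4 to 6 without each library, and the interaction stayed at 0. The cause of these shifts was not tested. The replicate block ended the Egr1 and Fos calls in untreated mice, added Atf3 in DC2 against DC1a and kept Egr2. With 2 libraries in a group, calls near the threshold depended on the filter, and Egr3 was called between batches only where an alternative let it pass the filter.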

Other observations

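Pools 1 and 2 of the TLI mice of batch 1 can be set side by side in DC1a, DC1b and DC3, as a description without a test. Egr1, Fos, Junb, Jund, Atf3 and Ier2 were higher in pool 2 in all 3 subsets, as 19.6% of all genes were, and Fosb was lower in all 3, as 16.1% of all genes were. In DC3, for example, Fos was at 781 CPM in pool 1 and 2189 in pool 2, Ier2 at 375 and 623, and Fosb at 313 and 75.3. Egr2 was higher in pool 2 in 2 of 3 subsets and Jun in 2 of 3. Red cell genes summed to 111500, 62150 and 132800 CPM in pool 1 of DC1a, DC1b and DC3, and to 23850, 23390 and 19250 in pool 2. General dendritic cell markers summed to 76030, 35610 and 29110 CPM in pool 1 and to 101900, 51860 and 75680 in pool 2. The part of these markers in the pool differences was not tested.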
